A study of Homo sapiens with 6 samples.

Results

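A split that crosses the groups was examined in human MDA-MB-231 cells, an established line of basal-like breast cancer, across 4 of the 6 arrays of the series. Control 1 and DICER1-sh 2 formed the first side, and Control 2 and DICER1-sh 1 formed the second side. Each side therefore held 1 array of each group, and any difference between the groups cancels between the sides. The split value of a gene is the mean of 2 pair differences on the log2 scale, Control 1 minus Control 2 and DICER1-sh 2 minus DICER1-sh 1. It was computed for 21044 of 47319 probes, those above background (detection p-value below 0.05) on at least 2 of these 4 arrays, which gave 16906 features, 11727 named genes and the rest unnamed probes.

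The control cells carry the shRNA expression label "control", and the DICER1-sh cells stably express a small hairpin RNA against DICER1. The DROSHA-sh cells, with a hairpin against DROSHA, supplied the 2 arrays that the split does not use. All 3 groups are the same untreated line, and all 6 arrays sit on 1 chip, per the labels. No label says whether the controls express a hairpin of any kind, whether the cells are a clone or a pool, or whether the arrays of a group stem from separate cultures, so any p-value here reflects spread between arrays that may be technical.

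The 4 arrays were assigned to the sides with their values known, so every split value below is a description, with no test. Tests were run only for DICER1-sh against Control, which is at a right angle to the split. Detection itself followed the split. Of the probes detected on exactly 2 of the 4 arrays, 805 were detected on Control 1 and DICER1-sh 2, against 218 to 301 for each of the other 5 pairs of arrays. Just inside the threshold, at a second lowest detection p of 0.0494, 25 probes had split values from -0.61 to 0.61 with a median of -0.15. Just outside it, at 0.0506, 161 probes had values from -0.92 to 1.06 with a median of 0.0001.

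Control 1 stands apart from the other arrays in signal. Its raw upper quartile of intensity was 413.8, against 350 on DICER1-sh 2, 318 on Control 2, 308.8 on DICER1-sh 1 and 353.7 to 364.5 on the DROSHA-sh arrays. The share of probes above background was 44.4% on Control 1 and 43.6% on DICER1-sh 2, against 42% and 42.1% on the second side and 42.1% to 42.3% on the DROSHA-sh arrays. Signal and detection were thus higher on the first side than on the second, and their part in the split was not tested. Because Control 1 had the brightest signal, the leading families are given for the DICER1-sh pair alone as well, which does not use it. Of 9 basal-like and mesenchymal markers on the array, 7 were above background on all 4 arrays, among them VIM, CD44 and AXL, while KRT5 and KRT14 were on none. Of 7 leukocyte markers on the array, CD3E and PTPRC were above background on none of the 4, and CD14, CD68 and LCP1 on all 4. Of 5 melanocytic markers, SOX10, TYR and MLANA were above background on none and MITF on all 4. Of 9 fibroblast markers, 5 were above background on none, among them COL1A1 and PDGFRB, and ACTA2 was on all 4.

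As background, the families described here differ in how their genes are built and used. Metallothioneins are small cysteine-rich proteins that bind zinc and copper, and metal-responsive transcription factor MTF1 drives them through short metal response elements near their start. Subunits of the respiratory chain and of ribosomes are the products of many, mostly compact genes and assemble in fixed proportion. Cohesin and condensin are ring complexes that hold sister chromatids together and fold chromosomes, and kinesins are motors that walk along microtubules.

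The metallothioneins had the lowest median split value of the 62 families with at least 5 members tested, and their promoters are shown because the members lay low together on 1 chromosome. All 6 tested members lie on chromosome 16, which is a property of the family and not a result of these arrays. The promoter table, from RefSeq on build GRCh38.p14, matched 2 of them, MT1X and MT2A, and did not match MT1E, MT1F, MT1G and MT1M. The 250 bases before the start of each gene follow, both on the plus strand, 5′ to 3′, with capitals marking the core of the metal response element, TGCACNC or TGCGCNC, searched on both strands. MT1X lies downstream of chr16:56682220-56682469 and MT2A downstream of chr16:56608334-56608583.
MT1X: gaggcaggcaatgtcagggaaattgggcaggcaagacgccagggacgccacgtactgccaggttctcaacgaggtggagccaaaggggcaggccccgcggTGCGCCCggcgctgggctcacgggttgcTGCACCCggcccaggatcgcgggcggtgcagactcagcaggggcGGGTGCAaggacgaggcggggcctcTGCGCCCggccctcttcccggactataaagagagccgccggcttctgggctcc
MT2A: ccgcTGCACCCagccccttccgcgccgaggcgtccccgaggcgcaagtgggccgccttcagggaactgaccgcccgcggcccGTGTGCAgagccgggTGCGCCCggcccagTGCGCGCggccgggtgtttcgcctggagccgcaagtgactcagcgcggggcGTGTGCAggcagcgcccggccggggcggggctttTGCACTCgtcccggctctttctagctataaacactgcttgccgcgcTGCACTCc
The window of MT1X held 4 matches and that of MT2A 7. Among 27305 promoters searched in the same way, 24.7% held at least 1 match, 0.366% at least 4 and 0.033% at least 7. A match describes these letters only, and no binding was measured.

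MT1F, a metal-binding protein of this cluster, had log2 intensities of 7.95 on Control 1 and 8.85 on DICER1-sh 2, against 9.53 on Control 2 and 9.93 on DICER1-sh 1. MT1X, whose promoter is printed above, stood at 10.66 and 12.05 on the first side and at 12.48 and 12.58 on the second. MT2A, the most abundant form in many tissues, stood at 14.32 and 15.25 on the first side and at 15.33 and 15.51 on the second. For these 3 genes both arrays of the first side lay below both of the second, as they did for 33.3% of all features, and Control 1 was the lowest array. MT1F was 2.99-fold lower in Control 1 than in Control 2 and 2.11-fold lower in DICER1-sh 2 than in DICER1-sh 1. MT1X was 3.55-fold and 1.44-fold lower in the same pairs. On the DROSHA-sh arrays MT1F was at 9.40 and 9.33 and MT1X at 12.67 and 12.76, close to the levels of the second side. Over the 6 members the median was -1.58 in the control pair, -0.59 in the DICER1-sh pair and 0.02 between the DROSHA-sh arrays. Members of this family are close copies of each other, and probes may share signal between them.

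Over all 16906 features the pair differences ran from -2.66 to 3.30 in the control pair (SD 0.762) and from -2.84 to 4.93 in the DICER1-sh pair (SD 0.664). Between the 2 DROSHA-sh arrays the range was -1.53 to 1.73 (SD 0.286). At least 2-fold apart were 18.6% of features in the control pair, 11.0% in the DICER1-sh pair and 0.627% in the DROSHA-sh pair. The differences of the control and DICER1-sh pairs had a Pearson correlation of 0.646 and a Spearman correlation of 0.626 across features, with 72.8% of the same sign. All features come from the same 4 arrays and are not independent, and the sides were chosen for this relation. With the DROSHA-sh pair the correlation was -0.038 for the control pair and -0.023 for the DICER1-sh pair. Of the variation of the 6 arrays around their group means, 76.6% lay on 1 axis. With 3 groups of 2 arrays only 3 such axes exist, and the others held 16% and 7.39%. These shares rest on the same pair differences, so they add no separate support for the split.

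**Figure D1:**
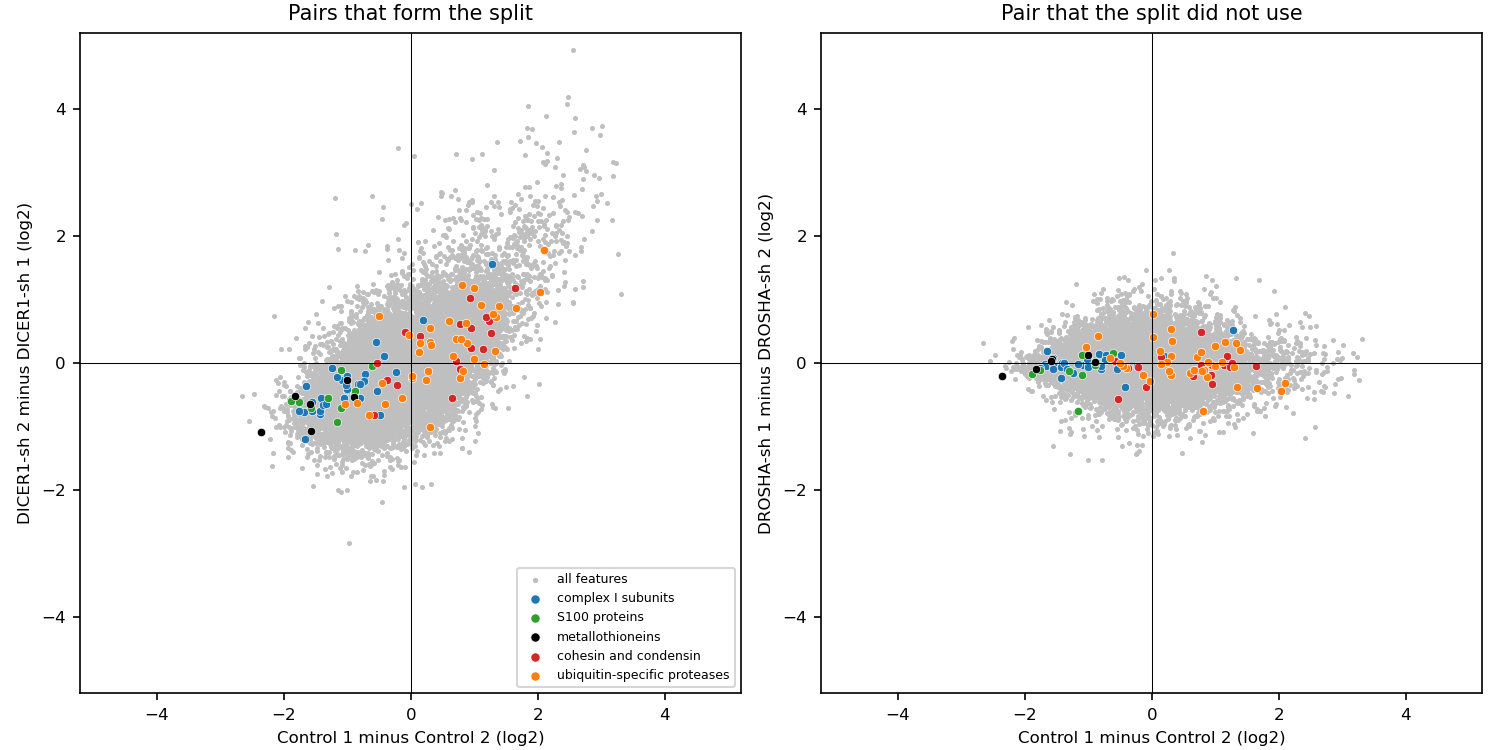
Each grey point is 1 of 16906 features, with Control 1 minus Control 2 on the x axis and, on the y axes, DICER1-sh 2 minus DICER1-sh 1 (left) or DROSHA-sh 1 minus DROSHA-sh 2 (right), all log2. Points run along the diagonal on the left (Pearson correlation 0.646) and lie flat on the right (-0.038). Metallothioneins, S100 proteins and most complex I subunits sit at lower left, and most members of the ubiquitin-specific proteases and of cohesin and condensin at upper right.

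A total of 576 features (3.41%) were at least 2-fold higher on the first side in both pairs, and 284 (1.68%) at least 2-fold lower, 860 (5.09%) in all. Of the higher features 61.1% were above background on all 4 arrays, and of the lower 90.1%, so many of the higher ones passed the filter through the side where they are high. Among the 13696 features above background on all 4 arrays, 352 were 2-fold higher and 256 2-fold lower. At least 1.5-fold apart in the same direction were 3374 (20.0%), 1572 higher (9.3%) and 1802 lower (10.7%), and at least 3-fold apart 189 (1.12%). Higher features made up 67.0% of the 860 and were the smaller part at 1.5-fold, and the share at 2-fold depended on the scaling too. It was 57.9% among features above background on all 4 arrays and 60.2% in the deposited processed values, but 86.0% without background correction, 82.1% with normexp at an offset of 50, 78.8% with cyclic loess and 91.3% with median scaling. Median scaling also moved the median control pair difference of all features to 0.18, from -0.04. Only 7 features were 2-fold apart in opposite directions in the pairs.

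The position of each array was read for both sets, whose signs on the 4 arrays are fixed by how the sets were chosen. For the 576 higher features, the median distance from the mean of the 4 arrays was 1.07 on Control 1, 0.52 on DICER1-sh 2, -0.49 on Control 2 and -1.07 on DICER1-sh 1. For the 284 lower features it was -0.87, -0.37, 0.44 and 0.82 on the same arrays. The DROSHA-sh arrays stood at -0.40 and -0.37 for the higher set and at 0.39 and 0.36 for the lower set. Both positions are on the side of Control 2. Only 61.1% of the higher set was above background on all 4 arrays, against 90.1% of the lower set. Features that passed the filter through the first side can lie near background on any other array. The DROSHA-sh position of the higher set is therefore not independent of the filter.

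The 12 genes at the top of the higher side, ranked by the smaller of their 2 pair differences among named genes above background on all 4 arrays, were SLC25A24, MAP1B, ADAM9, XPOT, TWF1, GNG12, AMD1, TNFSF18, ERBIN, LBR, BZW1 and ACBD5. They include membrane, cytoskeletal and translation genes. SLC25A24, a carrier of ATP and phosphate in the inner mitochondrial membrane, had log2 intensities of 11.52 on Control 1 and 10.41 on DICER1-sh 2, against 8.34 on Control 2 and 7.24 on DICER1-sh 1. Both pairs were about equally far apart, 9.08-fold and 8.98-fold. MAP1B, a microtubule-associated protein best known from neurons, stood at 10.30 and 9.60 on the first side and 7.29 and 5.86 on the second, 8.06-fold and 13.4-fold apart. XPOT, which exports tRNA from the nucleus, stood at 12.19 and 10.95 against 9.33 and 7.26. ADAM9, a membrane protease that sheds ectodomains, stood at 10.50 and 9.65 against 7.31 and 6.70. LBR, the lamin B receptor of the inner nuclear membrane, stood at 11.40 and 10.70 against 9.13 and 7.61. Both arrays of the first side lay above both of the second in 28.0% of all features. In each of these 5 genes the arrays ranked Control 1, DICER1-sh 2, Control 2 and DICER1-sh 1 from high to low. Over the 12 genes the control pair differed by 2.23 to 3.19 and the DICER1-sh pair by 2.17 to 3.74, while the DROSHA-sh arrays differed by -0.27 to 0.29.

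On the lower side the 12 genes were ARL6IP4, MARK2, ZNF524, EIF4EBP1, BBLN, OTUB1, PPP1R12C, LRRC45, ANTKMT, COMTD1, HCFC1R1 and TNFSF12. EIF4EBP1, the repressor of cap-dependent translation that binds eIF4E, had log2 intensities of 6.86 on Control 1 and 7.88 on DICER1-sh 2, against 8.79 on Control 2 and 9.37 on DICER1-sh 1. ARL6IP4 stood at 9.31 and 9.97 on the first side and 11.01 and 11.63 on the second. OTUB1, a deubiquitinase, stood at 7.17 and 7.64 against 8.79 and 9.08. The sides did not overlap in these 3 genes, which were ranked by such gaps, and both arrays of the first side lay below both of the second in 33.3% of all features. Their folds were smaller than those of the leading higher genes. EIF4EBP1 was 3.81-fold and 2.80-fold lower, ARL6IP4 3.26-fold and 3.15-fold, and OTUB1 3.08-fold and 2.70-fold. Over the 12 genes the control pair differed by -1.93 to -1.35 and the DICER1-sh pair by -1.94 to -1.37.

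**Figure D2:**
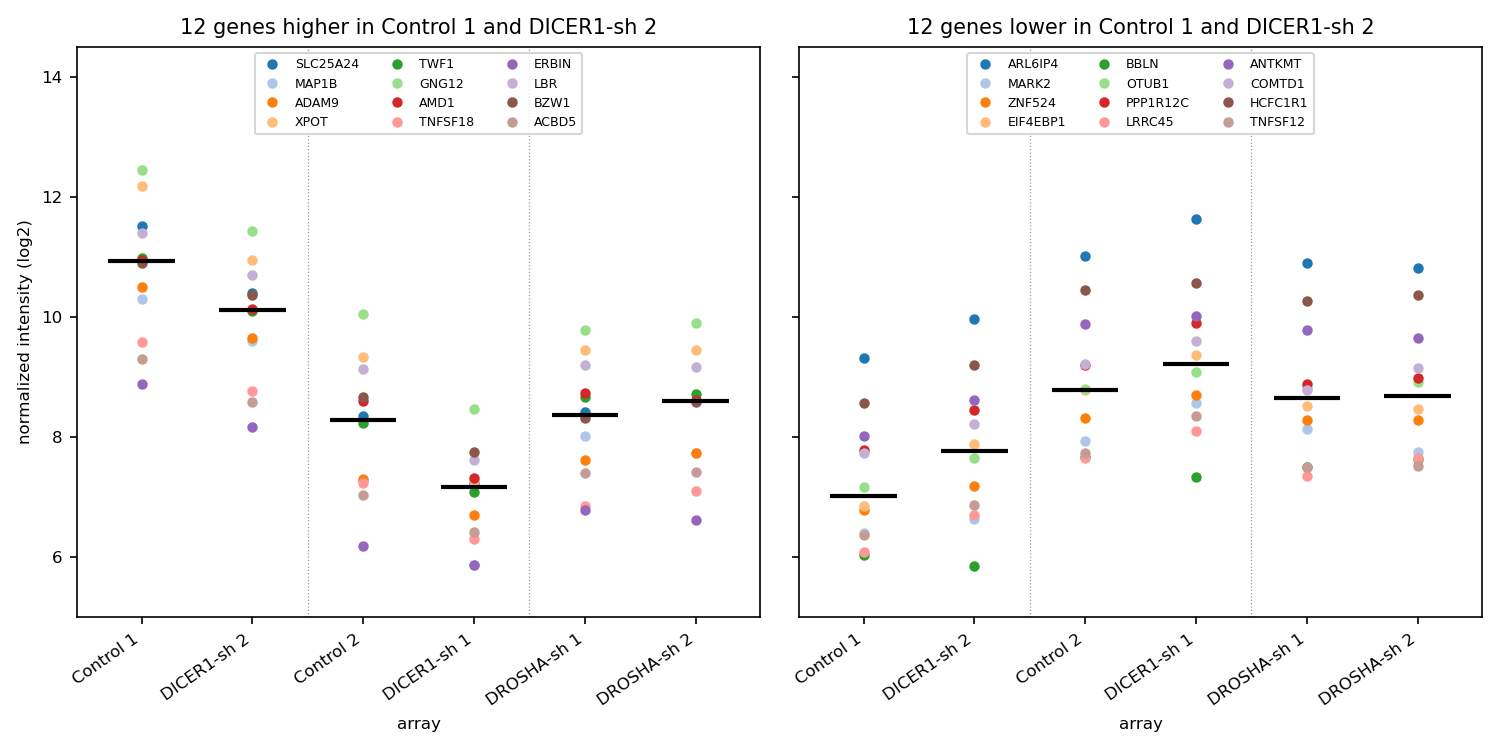
Normalized log2 intensity (y axis) on each of the 6 arrays (x axis) of the 12 genes highest (left) and the 12 genes lowest (right) on the first side, 1 point per gene and array, with the median of the 12 as a bar. Dotted lines separate the first side, the second side and the DROSHA-sh arrays. XPOT, for example, is at 12.19 and 10.95 on the first side and at 9.33 and 7.26 on the second.

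Many of these genes had a second probe above background, which shares the arrays but not the sequence. Over 3239 such genes the split values of the brightest and second probe had a Pearson correlation of 0.626 and a Spearman correlation of 0.651, and 75.5% were of the same sign. Among the 341 genes whose brightest probe had a split value of at least 1 in size, 89.1% were. The second probes of TWF1, LBR and BZW1 stood at 3.03, 2.47 and 3.44, and that of SLC25A24 at 1.04. ARL6IP4 stood at -1.22, OTUB1 at -0.41 and MARK2, a kinase of microtubule-associated proteins, at -0.21 by their second probes. ACBD5, a peroxisomal acyl-CoA binding protein, differed in sign between its probes, 2.23 by the brighter and -0.61 by the other.

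Families were formed by gene symbol or short lists. Of the 62 with at least 5 members tested, 18 had a median split value of -0.3 or below, 7 of 0.3 or above, and 37 lay between. For comparison the median of all features was -0.06. The sign of the median was the same in both pairs for 51 of the 62, and the median was larger in size in the control pair for 51. In the DROSHA-sh pair the medians of all 62 lay between -0.17 and 0.13. Across all features, 32.9% were higher and 39.8% lower on the first side in both pairs, and 9.3% and 10.7% were so by at least 1.5-fold, so family counts are read against those shares as descriptions only.

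**Figure D3:**
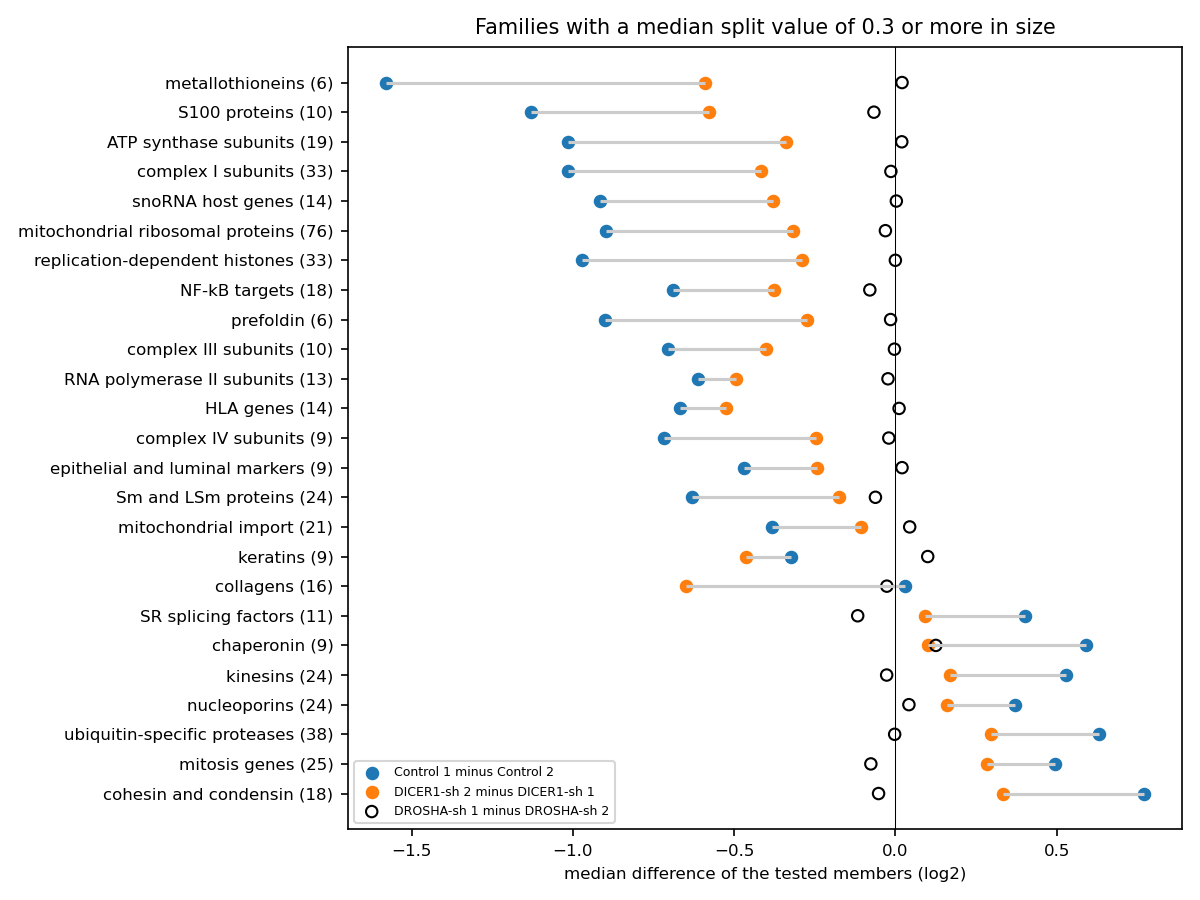
Median pair difference (x axis, log2) of the tested members of the 25 families whose median split value was 0.3 or more in size, with the number of members in parentheses. Filled points are the control pair (blue) and the DICER1-sh pair (orange), and open circles the DROSHA-sh pair, which stays between -0.17 and 0.13. The control pair lies farther from 0 in most of them, with keratins and collagens as exceptions.

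S100 proteins, small calcium-binding proteins, were lower in both pairs in 10 of 10 tested members (19 on the array), with medians of -1.13 in the control pair and -0.58 in the DICER1-sh pair. S100A4, linked to motility and metastasis, stood at 11.37 on Control 1 and 12.64 on DICER1-sh 2, against 13.25 on Control 2 and 13.24 on DICER1-sh 1. S100P stood at 9.26 and 10.49 on the first side and 10.84 and 11.20 on the second. The first side was below the second in both genes, by 3.69-fold and 1.52-fold in the pairs of S100A4. Both genes were named for their pair differences. Across all features, 33.3% had both arrays of the first side below both of the second. Of the 10 members, 9 lie on chromosome 1, which again is a property of the family.

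Respiratory chain families lay on the same side, complex by complex. Complex I, the NADH dehydrogenase, had medians of -1.01 and -0.42 in the control and DICER1-sh pairs, with 29 of 33 subunits lower in both. Another 2 were higher in both, 1 of them by at least 2-fold. Complex III had -0.71 and -0.40 with 9 of 10 lower and 1 higher. Complex IV, the cytochrome c oxidase, had -0.72 and -0.25 with 9 of 9 lower. ATP synthase had -1.01 and -0.34 with 14 of 19 lower and 2 higher. NDUFA13, an accessory subunit of complex I, stood at 9.31 on Control 1 and 10.10 on DICER1-sh 2, against 10.97 on Control 2 and 11.29 on DICER1-sh 1. ATP5ME, a membrane subunit of ATP synthase, stood at 12.27 and 13.11 against 13.62 and 14.00. COX8A of complex IV stood at 13.56 and 14.23 against 14.65 and 14.89. NDUFA13 had 3.15-fold and 2.29-fold lower levels on the first side, and ATP5ME and COX8A differed by 2.54-fold and 2.14-fold in the control pair and by 1.86-fold and 1.58-fold in the DICER1-sh pair. The 3 tested subunits of complex II were too few for a median, and SDHC, a membrane anchor, stood at 10.32 and 10.87 against 11.38 and 11.25.

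Ribosomal families differed in size. Mitochondrial ribosomal proteins had medians of -0.90 and -0.32, with 56 of 76 lower in both pairs and 19 of 76 by at least 1.5-fold. Of the 76, 5 were higher in both pairs. Cytosolic ribosomal proteins had medians of -0.45 and -0.16, with 50 of 69 lower in both pairs but only 3 of 69 by at least 1.5-fold. Of the 69, 6 were higher in both pairs. MRPL53 of the large mitochondrial subunit stood at 8.06 on Control 1 and 9.46 on DICER1-sh 2, against 10.13 on Control 2 and 10.45 on DICER1-sh 1. RPL14, the cytosolic member ranked first by the smaller pair difference, stood at 11.24 and 12.41 against 13.24 and 13.42. Host transcripts of snoRNAs, small guides of RNA modification that are cut from introns, had medians of -0.92 and -0.38 with 11 of 14 lower. SNHG17 stood at 9.37 and 9.95 on the first side and 10.28 and 11.04 on the second. The snoRNA genes themselves had medians of -0.11 and 0.19 over 120 members, of opposite sign in the pairs.

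Families of transcription and RNA processing were on both sides of 0. RNA polymerase II subunits had medians of -0.61 and -0.50, with 11 of 13 lower in both pairs. The other 2 were higher in both, 1 of them by at least 2-fold, with a split value of 1.98. POLR2I stood at 10.58 and 11.42 on the first side and at 11.87 and 12.31 on the second. Sm and LSm proteins, the core of spliceosomal snRNPs, had medians of -0.63 and -0.18, whereas SR splicing factors had 0.40 and 0.09. Replication-dependent histones, the histones made in S phase, had medians of -0.97 and -0.29, with 24 of 33 lower and 3 higher in both pairs. H2AC18 stood at 7.91 and 8.81 against 9.59 and 9.57, and at 10.23 and 10.25 on the DROSHA-sh arrays. Histone copies are nearly identical, so their probes may share signal too.

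Targets of NF-kB, a transcription factor of inflammation, had medians of -0.69 and -0.38, with 10 of 18 lower and 3 higher in both pairs. RELB, a subunit of NF-kB, stood at 7.22 on Control 1 and 7.64 on DICER1-sh 2, against 8.07 on Control 2 and 8.94 on DICER1-sh 1. NFKB2, the precursor of its partner p52, stood at 7.64 and 7.67 against 8.52 and 8.89. Both genes were farther apart in the DICER1-sh pair, 2.46-fold and 2.34-fold, than in the control pair, 1.80-fold and 1.84-fold. HLA genes of antigen presentation had medians of -0.67 and -0.52, with 8 of 14 lower and 2 higher in both pairs. HLA-B, a class I heavy chain that presents peptides, stood at 10.31 and 11.02 against 11.08 and 11.87. For the NF-kB list the DROSHA-sh arrays lay at 0.59 and 0.64 above the mean of the 4 arrays, higher than any of the 4, of which DICER1-sh 1 was highest at 0.30.

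Of 14 markers of luminal epithelium, 8 were above background on all 4 arrays, and 6 of these were lower on the first side in both pairs. Of all features 39.8% were lower in both pairs. EPCAM, 1 of the 6, was nearly level in the DICER1-sh pair, at 10.05 on DICER1-sh 2 and 10.06 on DICER1-sh 1. XBP1, a transcription factor of secretory cells, was higher on the first side, at 12.07 on Control 1 and 11.91 on DICER1-sh 2 against 11.76 on Control 2 and 11.78 on DICER1-sh 1. KRT18, the partner of KRT8, differed in direction between the pairs, at 9.19 and 8.91 on the first side against 9.66 and 8.02 on the second. The summed log2 level of the 8 was 76.47 on Control 1 and 78.93 on DICER1-sh 2, against 81.66 on Control 2 and 81.32 on DICER1-sh 1, and over all 14 it was 106.96 and 110.72 against 112.92 and 112.81. The hormone receptor genes ESR1 and PGR, the adhesion gene CDH1 and TFF1 were above background on none of the 4 arrays. Of the 7 basal-like and mesenchymal markers above background on all 4, 3 were lower in both pairs, 3 higher and 1 opposite. In RNA from a whole culture, fewer cells of a type and less RNA per cell cannot be told apart, and the part of these markers in the split was not tested. KRT8, a keratin of simple epithelium, stood at 10.24 and 10.47 on the first side and 11.30 and 11.67 on the second. The keratins had medians of -0.32 and -0.46 over 9 tested of 49 on the array. Collagens had a median of 0.03 in the control pair and -0.65 in the DICER1-sh pair, and their split median turned from -0.31 to 0.09 when only members above background on all 4 arrays were kept. COL4A2, a basement membrane collagen, stood at 7.50 and 6.61 on the first side and 8.47 and 9.45 on the second, 7.16-fold apart in the DICER1-sh pair.

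**Figure D4:**
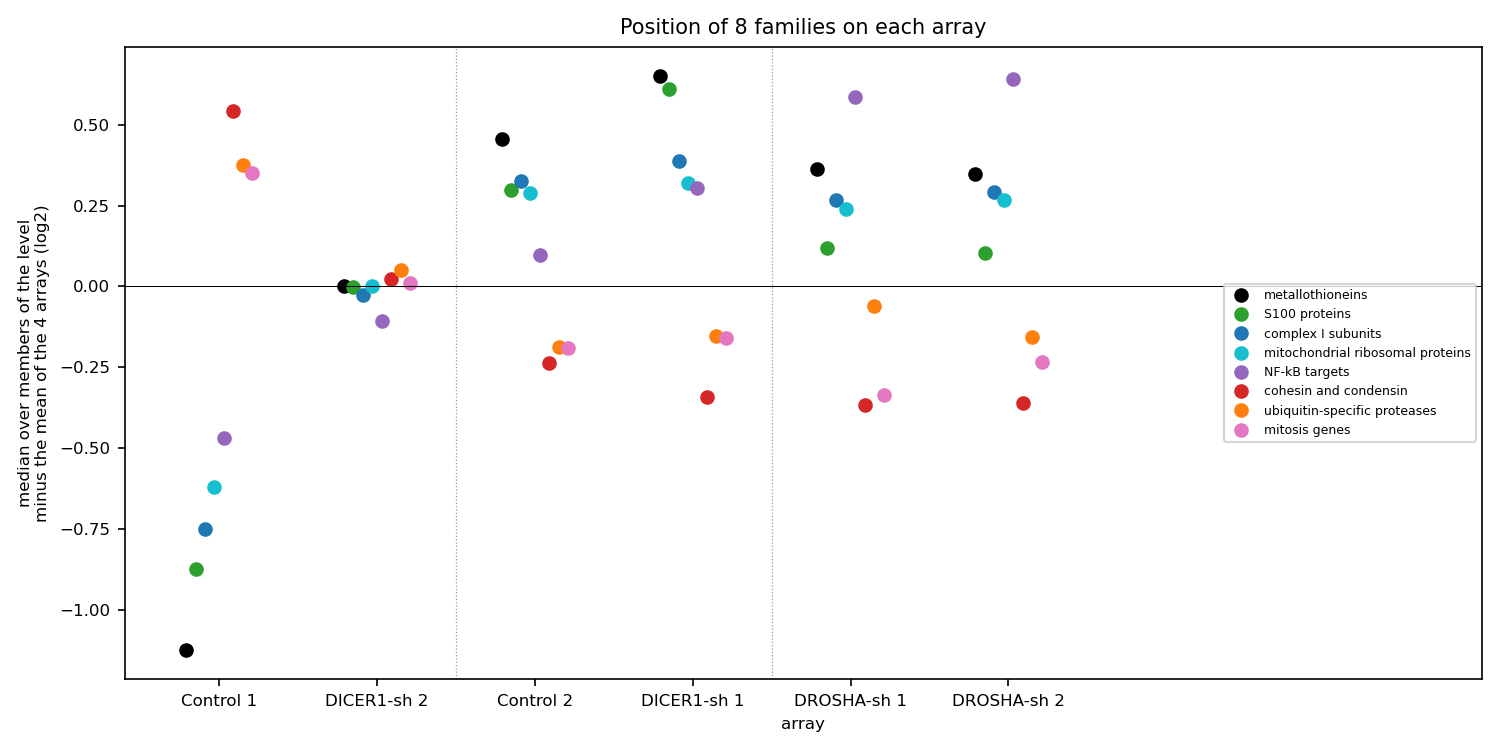
Median over the tested members of the level minus the mean of the 4 arrays (y axis, log2) for 8 families on each of the 6 arrays (x axis), with dotted lines between the first side, the second side and the DROSHA-sh arrays. Metallothioneins are at -1.12 on Control 1, at 0.00 on DICER1-sh 2, at 0.45 and 0.65 on the second side and at 0.36 and 0.35 on the DROSHA-sh arrays. DICER1-sh 2 sits near 0, and of the 4 arrays Control 1 lies farthest from it in all 8 families.

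Families higher on the first side included those of chromosome structure, cell division and protein turnover. Cohesin and condensin had medians of 0.77 in the control pair and 0.33 in the DICER1-sh pair, with 11 of 18 members higher in both, 5 of them by at least 1.5-fold, and 3 lower. WAPL, which releases cohesin from chromatin, stood at 10.80 on Control 1 and 10.52 on DICER1-sh 2, against 9.16 on Control 2 and 9.34 on DICER1-sh 1. RAD21, the subunit that closes the cohesin ring, stood at 14.44 and 14.07 against 13.51 and 13.05. SMC4, an arm of condensin, stood at 13.45 and 12.56 against 12.21 and 11.90. The sides did not overlap in these 3 genes, which were named for their pair differences, against 28.0% of all features with the first side above. Members of this family differed. Among condensin subunits SMC2 and NCAPG had split values of 0.87 and 0.68, and NCAPD2 and NCAPH2 of -0.28 and -0.70.

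Mitosis genes had medians of 0.50 and 0.28, with 14 of 25 higher and 5 lower in both pairs. TTK, a kinase of the spindle checkpoint, stood at 11.82 and 11.31 on the first side and 10.64 and 10.43 on the second. CDK1, the kinase that drives entry into mitosis, stood at 13.48 and 13.07 against 12.65 and 12.29. Kinesins had medians of 0.53 and 0.17, with 13 of 24 higher in both pairs and 6 lower. KIF5B, the heavy chain of conventional kinesin, stood at 12.63 and 11.42 against 9.96 and 9.59, the DROSHA-sh arrays being at 10.10 and 10.10. That is 6.40-fold in the control pair and 3.56-fold in the DICER1-sh pair, with both DROSHA-sh arrays near the second side.

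Ubiquitin-specific proteases, which remove ubiquitin, had medians of 0.63 and 0.30, with 22 of 38 higher and 6 lower in both pairs. USP12 stood at 8.98 and 7.89 on the first side and 6.94 and 6.77 on the second. Nucleoporins had medians of 0.37 and 0.16, and the chaperonin that folds actin and tubulin had 0.59 and 0.10, with 5 of 9 higher and 0 lower. TCP1 of the chaperonin stood at 13.33 and 13.01 against 12.74 and 12.78. Zinc finger genes, the largest of the families named here with 361 tested, had medians of 0.35 and 0.07, with 182 higher and 82 lower. Solute carriers, with 213 tested, had a median split value of 0.01, although SLC25A24 led the higher genes.

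The hairpin targets and the miRNA pathway were read on the same arrays. DICER1, the enzyme that dices miRNA precursors in the cytoplasm, stood at 10.55 on Control 1, 9.36 on Control 2, 8.41 on DICER1-sh 1, 8.66 on DICER1-sh 2 and 10.36 and 10.27 on the DROSHA-sh arrays. Both DICER1-sh arrays were below all others, and the control arrays were 2.27-fold apart. DROSHA, the nuclear enzyme at the start of the pathway, was at 11.58, 10.91, 11.40 and 10.81 on the same 4 arrays and at 9.00 and 8.98 on the DROSHA-sh arrays. By this probe its levels ran with the replicate number and not with the split, while its second probe differed by 1.04 in the control pair and 0.16 in the DICER1-sh pair. AGO2, the slicing Argonaute, followed the split at 12.28 and 11.94 on the first side against 11.43 and 10.72 on the second. The 14 tested miRNA machinery genes had medians of 0.74 in the control pair and 0.02 in the DICER1-sh pair. Of 560 miRNA genes with probes, 50 were tested, with medians of -0.14 and -0.07. MIR98, a let-7 family member, stood at 6.68 and 7.36 against 8.25 and 8.44, and such probes do not separate the hairpin from the transcript around it.

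Gene span, a property that the split did not use, varied with it. Span is the length from the first to the last base of the gene in the RefSeq annotation of GRCh38.p14, introns included, and was known for 11720 of 11727 named genes. The 11060 protein-coding genes were cut by span into 5 classes of 2212. In the class of the shortest genes (median 5.04 kb) the median was -0.55 in the control pair and -0.38 in the DICER1-sh pair. In the class of the longest (median 154 kb) it was 0.36 and 0.12. The medians of the classes between lay in order in both pairs. Those of the DROSHA-sh pair were in order too, but fell with span and only from -0.002 to -0.024. At least 1.5-fold higher on the first side in both pairs were 2.22% of the shortest and 16.7% of the longest genes, and at least 1.5-fold lower 25.5% and 3.66%. The Spearman correlation with span across these genes was 0.413 for the control pair, 0.304 for the DICER1-sh pair and -0.038 for the DROSHA-sh pair. Genes of a class share arrays and, often, families, so these values are descriptions.

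**Figure D5:**
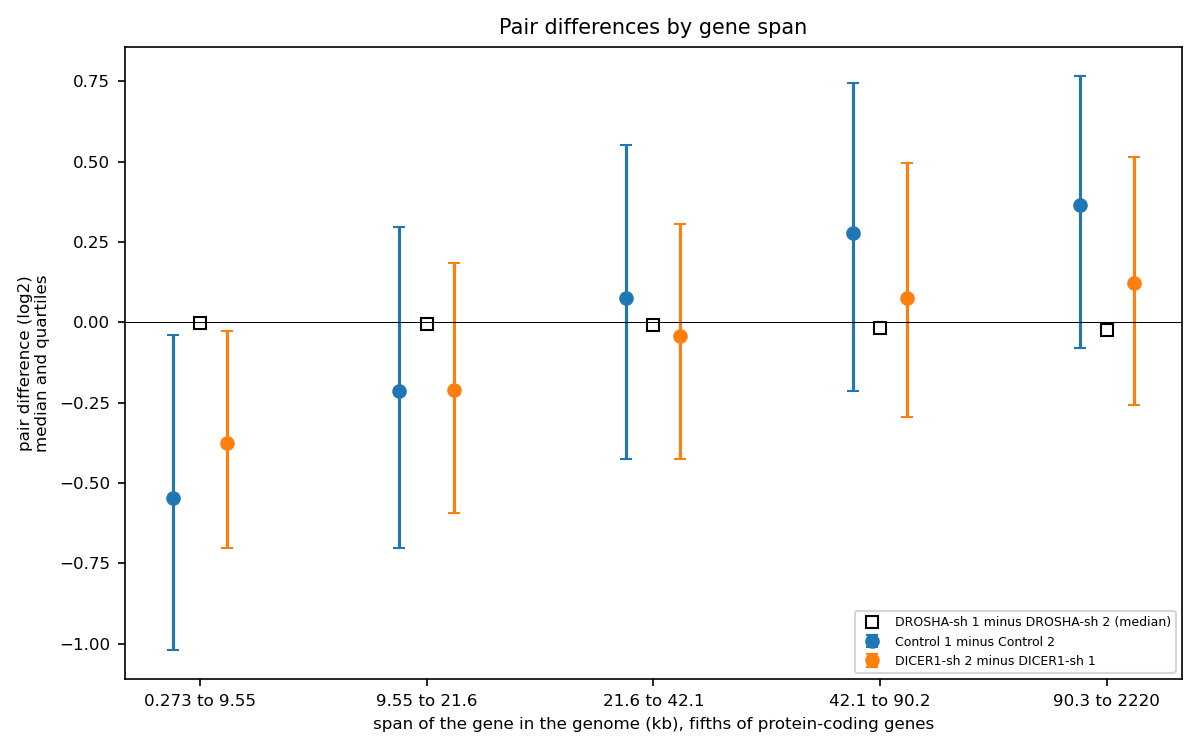
Pair differences (y axis, log2) by class of gene span (x axis, kb, 5 classes) over 11060 protein-coding genes. Filled points are medians with bars from the lower to the upper quartile for the control pair (blue) and the DICER1-sh pair (orange), and open squares are medians of the DROSHA-sh pair. The control pair runs from -0.55 to 0.36 and the DICER1-sh pair from -0.38 to 0.12, while the DROSHA-sh pair stays near 0.

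Span also differed between the families named above. The median span was 1.33 kb for metallothioneins, 3.90 kb for S100 proteins and 8.64 kb for mitochondrial ribosomal proteins, against 63.4 kb for cohesin and condensin, 71.3 kb for kinesins and 74.8 kb for ubiquitin-specific proteases. Some families went against this order. The median span was 8.08 kb for SR splicing factors and 17.3 kb for the chaperonin, with median split values of 0.32 and 0.33. For collagens it was 115 kb, with a median split value of -0.31. That value turned to 0.09 when only members above background on all 4 arrays were kept, and the control pair median was 0.03. There were exceptions among single genes too. MARK2 of the lower group spans 71.9 kb, and TNFSF18, the GITR ligand of the higher group, spans 11.7 kb. The second probe of MARK2 had a split value of only -0.21. The promoter table held 9257 of the 11060 genes (83.7%), and GC content of the promoter had Spearman correlations of -0.022 and -0.068 with the control and DICER1-sh pairs. The mean level of a gene had correlations of 0.02 and 0.09.

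The comparison of DICER1-sh with Control asks which mRNAs respond to less DICER1, and it was the only tested contrast. At an adjusted p of 0.05 limma called 0 of 16906 features (0.0%). The lowest adjusted p was 0.973, and 333 of the 16906 features were below an unadjusted p of 0.05. The fit had no term for the split, so its spread between arrays includes the split. The absence of calls therefore does not show that no mRNA responded. DICER1 had a log2 difference of -1.42 with a standard error of 0.41 (limma adjusted p = 0.973). The genes with the smallest p included GPR65, a proton-sensing receptor, at 7.04 and 7.03 on the control arrays and 5.84 and 5.73 on the DICER1-sh arrays, and BTN3A2, a butyrophilin, at 5.98 and 5.94 against 7.32 and 7.0. TNFSF9, the ligand of 4-1BB, stood at 6.51 and 6.79 against 7.96 and 7.70. None of these 3 passed the test. FARP2 and ASAP1-IT1 were not above background on either DICER1-sh array and were at least 1.68-fold and 1.40-fold lower there, and KCNJ18 was above background on neither control array and at least 1.2-fold higher in DICER1-sh (limma adjusted p = 0.973 for each).

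Beside the split, 5 of the families had these group differences. The group and split values share all 4 arrays. The median group difference was 0.61 for metallothioneins, 0.59 for S100 proteins, 0.42 for complex I and 0.51 for HLA genes, where the median control pair difference was -1.58, -1.13, -1.01 and -0.67. For cohesin and condensin the median group difference was -0.27, against 0.77 in the control pair. No member of any of the families was called. With the pairing that the split itself defines as a block, on the 4 arrays alone, limma called 84 features (0.497%), 25 higher and 59 lower in DICER1-sh, DICER1 among them. That block was chosen from these values, the fit kept 1 residual degree of freedom and gave all features 1 standard error, so its calls are not evidence of a group difference.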

How the data were processed

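Total RNA prepared with Trizol was labelled as biotinylated cRNA and hybridised to 6 Illumina arrays, 2 per group, per the labels. The authors deposited a table of mean bead intensity per probe and array, without scaling between arrays, and a detection p-value for each intensity, per the file headers. A further deposited table holds processed intensity values, used as an alternative. The submitters' processing notes name GenomeStudio, and its version and settings are not given in the sources used here.

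Values were normalized over all 6 arrays by limma 3.58.1 (R 4.3.3), using neqc with an offset of 16, which corrects background through the detection p-values, applies quantile normalization and takes log2. Probes with a detection p-value below 0.05 on 2 or more of the 4 arrays were kept. Platform annotation gave 30112 probes 1 symbol, 8 several and 17199 none, and 30073 were updated by Entrez number in RefSeq's gene table (GRCh38.p14). The probe brightest over the 4 arrays stood for each of the 3239 genes with several, and 30.6% of features were unnamed.

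DICER1-sh was compared with Control by lmFit and eBayes over all 6 arrays, with Benjamini-Hochberg adjustment (3 residual and 4.18 prior degrees of freedom). The fit was also run on simulated arrays. Their random spread was smaller than that within any group here, so the run does not show what the fit could call in these data. Splits, families and properties were described in Python 3.11.15 with pandas 2.3.3 and scipy 1.17.1. Between 42% and 44.4% of probes were above background per array, and precision is limited by how few arrays there are. Probe levels were compared only with the same probe.

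Named genes were DICER1 and DROSHA, the 12 highest and 12 lowest by the smaller of both pair differences among named genes detected on all 4 arrays, up to 4 members per family by the same measure, and 3 genes each way by the group test. Members of families named beyond that (MT2A, SMC2, NCAPG, NCAPD2, NCAPH2) and marker genes were chosen after their values were seen. The sides, the members and the lists were chosen with earlier results of these data known, and some family patterns were corrected after the files were seen. Bounds ("at least") set the brighter group's mean against the lowest detected signal or the probe's own value, whichever was higher. Protein lengths were not used here. Samples with the same replicate number deviated in opposite directions between Control and DICER1-sh (correlation -0.646). This is the relation by which the sides were chosen, with its sign turned, so it does not show how the arrays were paired.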

Additional observations from a re-analysis of the deposited data

How the results depend on the processing

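No test bears on the split, so its values are given as a range of settings. At least 2-fold apart in both pairs were 860 features, against 3374 at 1.5-fold, 189 at 3-fold, 265 without background correction, 347 with normexp at an offset of 50 and 1368 in the deposited processed values. Without a filter on detection, the pair correlation was 0.532, the relation to span 0.280, the second probe correlation 0.476, and the number of families at least 0.3 from 0 was 16 in place of 25. By the DICER1-sh pair alone, without Control 1, 15 families were that far from 0 and the relation to span was 0.304. The number of such families was 35 by the control pair alone and 29 with median scaling or cyclic loess. Of the 25 families, 24 kept 1 sign under all 10 settings. The exception was the collagens, at 0.087 with members detected on all 4 arrays and 0.029 by the control pair alone. Median group differences of at least 0.3 in size were found in 8 families. They were found in 5 without background correction and in 4 without a filter, but in 10 in the deposited processed values and in 11 with median scaling. The group comparison called 0 features under every scaling and filter. Leaving out 1 of the 4 arrays leaves a group of 1, which is assumed to vary like the other groups, so its calls (0 to 0) say nothing about stability. The features at an unadjusted p below 0.05 then numbered 131 to 2946, the most without Control 2. With the replicate number of the labels as a block it called 0 features, on all 6 arrays and, in a fit added after seeing the data, on the 4 arrays alone. With the crossed replicate block on 4 arrays it called 84. The cause of these shifts was not tested.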

Other observations

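Chromosomes differed in the split along with the span of their genes. The median split value of protein-coding genes was lowest on chromosome 19 (-0.38 over 763 genes, median span 15.5 kb), chromosome 22 (-0.34) and chromosome 16 (-0.31), and highest on chromosome 18 (0.27 over 160 genes, median span 56 kb), chromosome 13 (0.26) and chromosome 4 (0.25). Within chromosome 19 the 170 zinc finger genes had a median of 0.29, and the other 593 genes a median of -0.57. Of those 593 genes, 34.9% were at least 1.5-fold lower on the first side in both pairs and 0.506% at least 1.5-fold higher. Zinc finger genes on other chromosomes, 185 of them, had a median of 0.12. The median span was 22.6 kb for zinc finger genes of chromosome 19 and 13.7 kb for its other genes. These values come from the arrays that define the split and were not tested.

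Some genes were far apart in only 1 of the pairs, by a difference of under 0.25 in the other, and were chosen after their values were seen. RNA28SN5, a 28S ribosomal RNA gene, stood at 10.93 on DICER1-sh 1 and between 14.32 and 14.84 on the other 5 arrays. H4C3, a histone H4 gene, stood at 12.23 on DICER1-sh 1 and between 14.78 and 15.49 on the others. ATG4B, a protease of autophagy, stood at 7.45 on DICER1-sh 1 and between 9.11 and 9.54 on the others. DICER1-sh 1 is the lone low array in these 3 genes. In others it was the lone high array. ZNF768 stood at 8.48 on DICER1-sh 1 and between 6.52 and 7.57 on the others, and RIPOR3 at 7.64 and between 5.64 and 6.81. Control pair differences of this kind included PPDPF, at 6.74 on Control 1 and 8.81 on Control 2 against 7.81 and 7.59 on the DICER1-sh arrays, and RPL29, a ribosomal protein, at 9.72 and 11.31 against 10.65 and 10.46.

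Unnamed probes, 5179 of the features, had medians of -0.12 in the control pair and -0.04 in the DICER1-sh pair. Their values are not described further because no gene is given for them.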
